A study of Mus musculus with 11 samples.

Results

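*Krt6b*, *Krt8*, *Krt19*, and *Dsg3* were followed across mouse skin squamous carcinoma cells and lymphatic endothelial cells (LECs) cultured alone or together. They were chosen by gene symbol, as the keratin and desmosomal cadherin genes among the deposited values. They make up 4 of the 458 genes for which the authors deposited values, a selected set. All 4 were among the 290 genes listed for the carcinoma line HaCa4, and *Krt8* was also among the 191 genes listed for LECs. Bulk RNA-seq covered 11 libraries in 4 groups. HaCa4 control (n = 2) and LEC control (n = 3) were grown as single cultures, whereas HaCa4-sorted (n = 3) and LEC-sorted (n = 3) were separated by FACS after 24 h of co-culture. HaCa4, a mouse skin squamous carcinoma line, has mutant H-Ras, stands for the promotion stage of chemical skin carcinogenesis (with the promoter TPA), and forms tumors. The LECs (imLEC) are a dermal line made from the Immortomouse, conditionally immortal through a thermolabile viral large T antigen under the H-2Kb promoter, and 2 clones of it were used interchangeably. For sorting, the cancer cells were labelled with the dye CFSE and the LECs with an antibody to CD31. The sources used here do not clearly describe sorting of the controls. Differences between sorted and control libraries may therefore stem from co-culture or from labelling and sorting, which cannot be told apart here. The labels do not say whether replicates came from separate cultures, so p-values measure only the spread between these libraries, which may be technical.

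Keratins are the intermediate filament proteins of epithelial cells and assemble as pairs of a type I and a type II chain. K8, encoded by *Krt8*, is a type II chain of simple, single-layered epithelia, and K19, encoded by *Krt19*, is a type I chain found in simple epithelia and in hair follicle stem cells of the skin. K6b, encoded by *Krt6b*, is a type II chain of stratified epithelia that is known for its induction in wounded and hyperproliferative epidermis. Desmoglein 3, encoded by *Dsg3*, is a transmembrane cadherin of desmosomes, the junctions to which keratin filaments are anchored, and is most abundant in the basal layers of stratified epithelia. Endothelial cells are not known as a major source of any of these transcripts.

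In the mouse genome (GRCm38.p6, RefSeq), *Krt6b* and *Krt8* both lie in the type II keratin cluster of chromosome 15, on the minus strand. *Krt6b* spans positions 101676023 to 101680293 and *Krt8* positions 101996711 to 102004342, 316.4 kb apart. *Krt19* lies in the type I cluster of chromosome 11, from 100140810 to 100145926 on the minus strand. In GENCODE M21, the main transcripts have 9 exons for *Krt6b* and for *Krt8* and 6 exons for *Krt19*.

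Close relatives limit how well reads can be assigned to 2 of the 4 genes. Of all 100-base windows of the *Krt6b* transcript, 30.1% occurred unchanged in a transcript of *Krt6a*, its neighbouring paralog, and 16.9% of those of *Krt8* occurred in the pseudogene *Krt8-ps*. *Krt19* and *Dsg3* had 0 such windows in other genes. With 50-base windows the shares were higher, at 44.5% for *Krt6b* in *Krt6a* and 26.9% for *Krt8* in *Krt8-ps*. Of the 50-base windows of *Dsg3*, 0.36% occurred in other genes, and *Krt19* again had 0. The coding sequences of *Krt6b* and *Krt6a* were identical at 97.6% of 1665 aligned positions. The 60-base stretch in which they differ most, by 10 bases, is shown because reads across it can tell the paralogs apart. It corresponds to coding positions 817 to 876 of both genes, in exon 4, at chr15:101678303-101678362 for *Krt6b* and chr15:101692484-101692543 for *Krt6a*, both in GRCm38 on the minus strand. Capitals mark the differing bases.
Krt6b: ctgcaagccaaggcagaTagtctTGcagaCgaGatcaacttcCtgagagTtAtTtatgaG
Krt6a: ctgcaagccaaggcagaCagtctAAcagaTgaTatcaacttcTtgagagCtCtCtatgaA
How the authors' quantification divided reads between such paralogs is not given in the sources used here, and *Krt6a* was not analysed here. The levels of *Krt6b* and *Krt8* carry this uncertainty.

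Levels are given in TPM, the share of a transcript among all transcripts on a per-million scale, which accounts for transcript length, so that different genes can be compared. TPM keeps no read numbers, and the depth of each library is therefore unknown. The listed genes made up between 1.84% and 3.85% of the total TPM of a library and had been selected by the authors. Changes were tested with limma on log2(TPM + 1), where the addition of 1 understates the change of low genes. Benjamini-Hochberg adjustment was over all genes listed for the cell line. As these lists were selected for change in the same libraries, all adjusted p-values here apply within the selection and are not genome-wide evidence of change. A gene was called when its absolute log2 change was at least 0.5 and its adjusted p at most 0.05, the cut-offs of the study. In HaCa4, 87 of 290 genes were called, a background of 30%, with 46 higher and 41 lower in HaCa4-sorted. When libraries were rescaled to an equal median, 50 were higher and 95 lower, as the rescaling, to the median of a selected list, shifted the log2 changes by a median of -0.72. All 4 genes kept their direction under it, with log2 changes of -2.60 for *Krt6b* and -1.44 for *Krt8*. Because the list is a selection of changed genes, 280 of its 290 genes (96.6%) had no overlap between control and sorted libraries.

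In HaCa4-sorted cells, *Krt6b* and *Krt8* fell and *Krt19* rose relative to HaCa4 control. *Dsg3* was lower in all 3 sorted libraries without passing the test. Thus 2 of the 4 genes were called lower, where 14.1% of all listed genes were, and 1 was called higher, where 15.9% were. For each of the 4 genes, sorted libraries did not overlap with controls, as was so for most listed genes (33.4% lower and 63.1% higher in all sorted libraries). Bulk measurements cannot separate fewer cells that express a transcript from less of it per cell.

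*Krt8* was by far the most abundant of the 4 transcripts. It stood at 283.80 and 380.41 TPM in HaCa4 controls 1 and 2, and at 220.13, 205.34, and 238.24 TPM in HaCa4-sorted replicates 1 to 3. Every sorted library lay below both controls. HaCa4 control had a mean of 332 ± 68.3 TPM (SD, n = 2), and the sorted mean of 221 ± 16.5 TPM (SD, n = 3) was 33.4% lower. On the log2(TPM + 1) scale the change was -0.57 (95% interval -0.94 to -0.20, adjusted p = 0.0391 from limma). *Krt8* ranked 10th by mean TPM among the 290 genes in the controls and 16th in the sorted libraries, so it was an abundant transcript among the listed genes in both groups. The controls differed more from each other than the sorted libraries did.

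On the log2(TPM + 1) scale, *Krt6b* showed the lowest log2 change of all 290 listed genes, closely followed by *Tslp* at -1.86. Its rank with other pseudocounts was not examined. Control 1 had 14.30 and control 2 had 9.09 TPM, compared with 3.31, 1.40, and 2.76 TPM in sorted replicates 1 to 3. The highest sorted library was thus well under the lower control. The control mean of 11.7 ± 3.68 TPM (SD, n = 2) compared with a sorted mean of 2.49 ± 0.98 TPM (SD, n = 3), a 4.70-fold decrease of the mean TPM. The log2 change was -1.87 (95% interval -2.92 to -0.83, adjusted p = 0.0366 from limma).

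*Krt19* changed in the opposite direction. The controls were nearly equal at 10.03 and 10.28 TPM, and the sorted replicates 1 to 3 reached 16.59, 18.49, and 29.27 TPM. The means were 10.2 ± 0.18 TPM (SD, n = 2) and 21.5 ± 6.84 TPM (SD, n = 3), a 2.11-fold increase with most of the spread in sorted replicate 3. The log2 change was 0.97 (95% interval 0.28 to 1.65, adjusted p = 0.0441 from limma). This rise lay close to the median log2 change of 0.74 over all listed HaCa4 genes, and once libraries were rescaled to an equal median it was 0.16 and no longer called (adjusted p = 0.763 from limma).

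*Dsg3* lies on chromosome 18 (GRCm38.p6, 20510274 to 20541310, plus strand) and has 16 exons. Its level was 12.73 TPM in control 1 and 10.16 TPM in control 2, against 6.53, 8.25, and 5.43 TPM in sorted replicates 1 to 3, all below both controls. Its mean was 11.4 ± 1.82 TPM (SD, n = 2) against 6.74 ± 1.42 TPM (SD, n = 3). The log2 change of -0.69 had a 95% interval from -1.43 to 0.04 and an adjusted p of 0.0899 from limma, short of the cut-off. Rescaled to an equal median, it was -1.48 and passed (adjusted p = 0.00803 from limma).

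**Figure D1:**
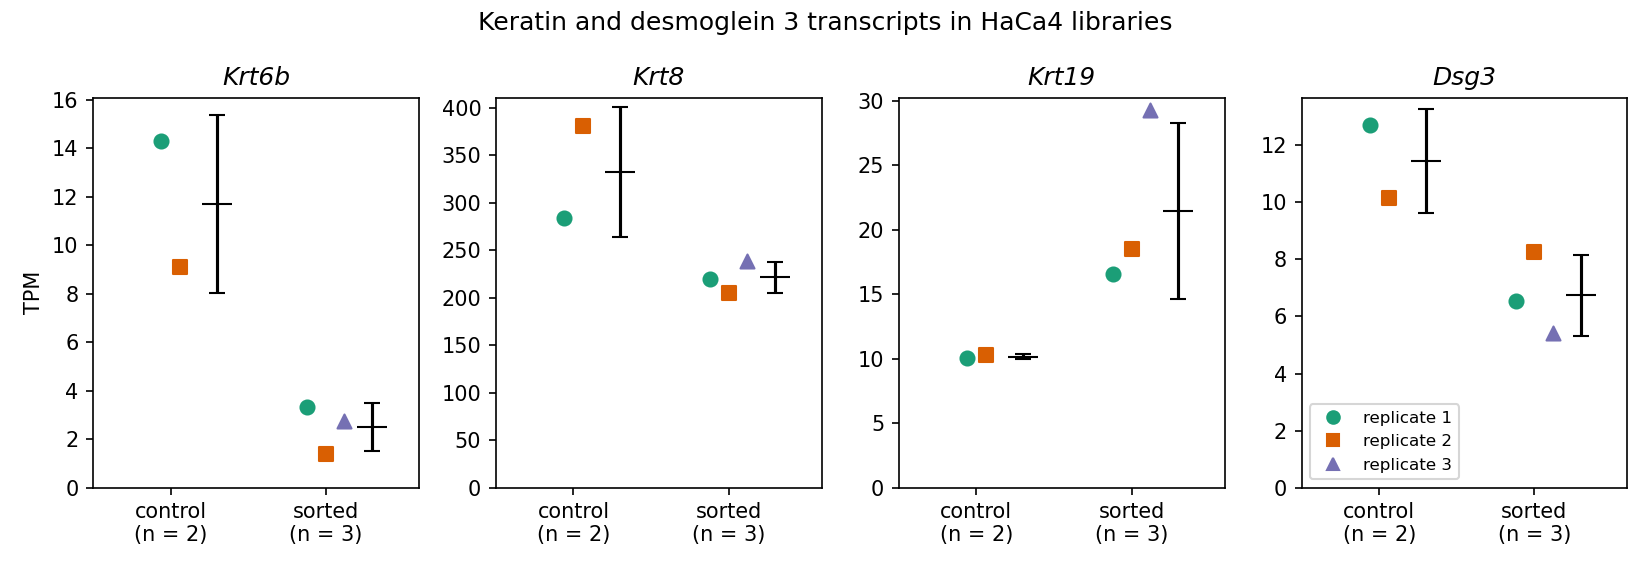
Transcript level in TPM (linear axes from 0) of each gene in the 2 HaCa4 control and 3 HaCa4-sorted libraries, with one point per library and bars for mean ± SD. The sorted libraries lie below both controls for *Krt6b*, *Krt8*, and *Dsg3*, and above both for *Krt19*.

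In the controls, *Krt6b*, *Dsg3*, and *Krt19* were at similar levels, with ranges of 9.09 to 14.30, 10.16 to 12.73, and 10.03 to 10.28 TPM that overlapped. In the sorted libraries the same genes were spread out. *Krt19* was highest in every sorted library, *Dsg3* came next, and *Krt6b* was lowest, with no overlap between neighbours in this order.

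These calls rested on few libraries. *Krt6b* was no longer called without HaCa4 control 1, control 2, or sorted replicate 3 (adjusted p = 0.184, 0.161, and 0.0769 from limma). *Krt8* was no longer called without control 1, control 2, sorted replicate 2, or sorted replicate 3 (adjusted p = 0.0504, 0.196, 0.0504, and 0.0827 from limma). The log2 change of *Krt8* was -0.36 without control 2. For *Krt19* the same 4 omissions gave adjusted p-values of 0.147, 0.196, 0.0522, and 0.0827 from limma. Where a control was omitted, the remaining control was assumed to vary like the sorted libraries. The direction of all 4 genes was the same in each of these fits. With no overlap between the groups, omitting a library could not reverse it.

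**Figure D2:**
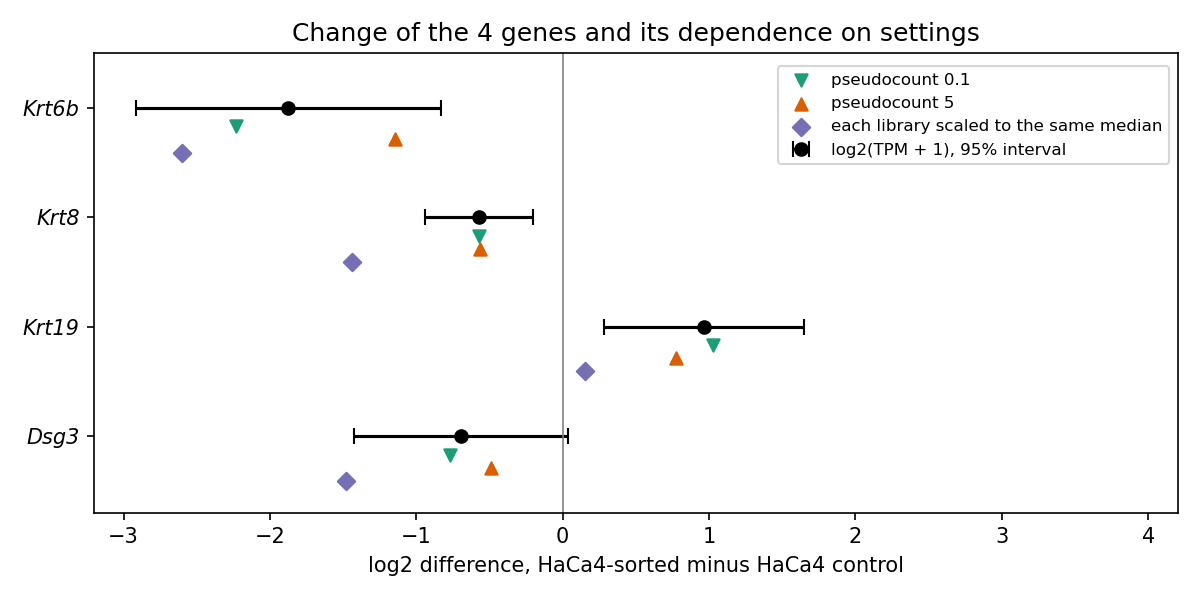
Log2 difference between HaCa4-sorted and HaCa4 control for each gene on the log2(TPM + 1) scale, with the 95% interval from limma (black), and the estimate with a pseudocount of 0.1 or 5 or after rescaling libraries to an equal median. Every estimate keeps its side of 0, which for the pseudocounts follows from groups that do not overlap. Scaling moves all 4 genes towards lower values, *Krt19* to 0.16.

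**Figure D3:**
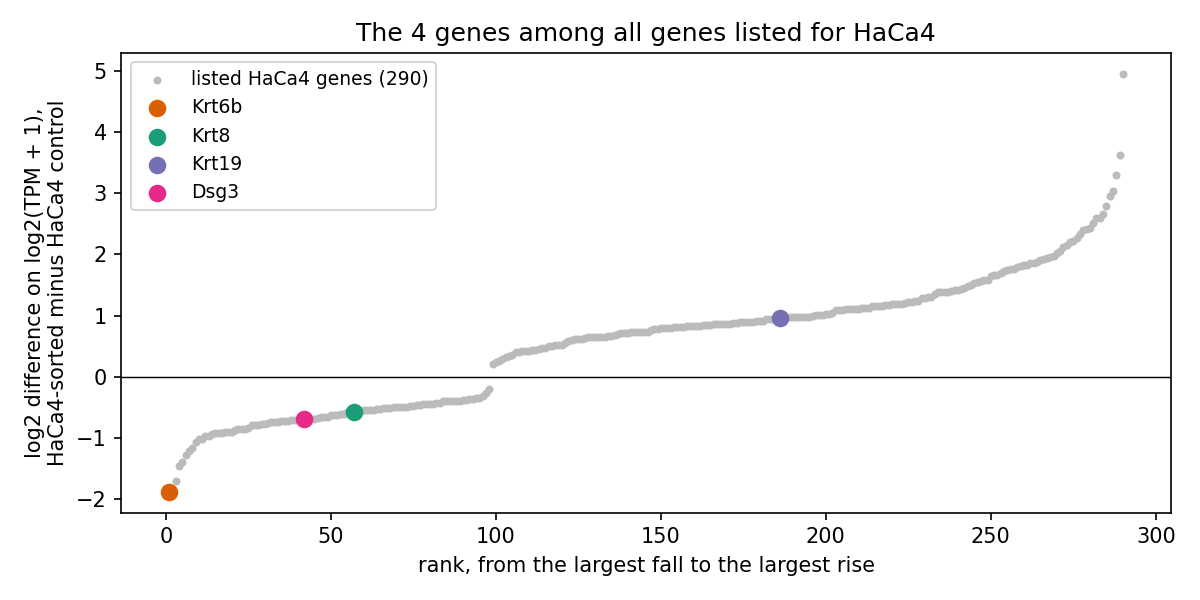
Log2 difference between HaCa4-sorted and HaCa4 control for the 290 listed genes, ordered from the largest fall to the largest rise. *Krt6b* is first, *Dsg3* is at rank 42, *Krt8* at rank 57, and *Krt19* at rank 186, in the middle of the genes that were higher; after rescaling libraries to an equal median the log2 difference of *Krt19* is 0.16.

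Ratios within a library do not depend on how libraries are scaled to each other. The TPM ratio of the type II keratin *Krt8* to the type I keratin *Krt19* was 28.3 and 37.0 in controls 1 and 2, and 13.3, 11.1, and 8.14 in sorted replicates 1 to 3. *Krt8* thus remained in large excess in every library, but by a smaller factor in all sorted ones. The log2 ratio went from 5.02 ± 0.27 (SD, n = 2) to 3.41 ± 0.36 (SD, n = 3), a difference of -1.61. An exact two-sided permutation test gave p = 0.2, the smallest value that 2 against 3 libraries allow.

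The remaining ratios are given as a description. *Krt8* exceeded *Krt6b* 19.8-fold and 41.8-fold in the controls, and 66.5-fold, 146.7-fold, and 86.3-fold in sorted replicates 1 to 3. The ratio of *Krt8* to *Dsg3* was 22.3 in control 1, 37.4 in control 2, and 33.7, 24.9, and 43.9 in sorted replicates 1 to 3. These ranges overlapped, whereas the ratio of *Krt8* to *Krt6b* was higher in all sorted libraries than in either control. *Krt19* was about level with *Krt6b* in the controls, with ratios of 0.70 and 1.13, and exceeded it 5.01-fold, 13.2-fold, and 10.6-fold in sorted replicates 1 to 3.

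**Figure D4:**
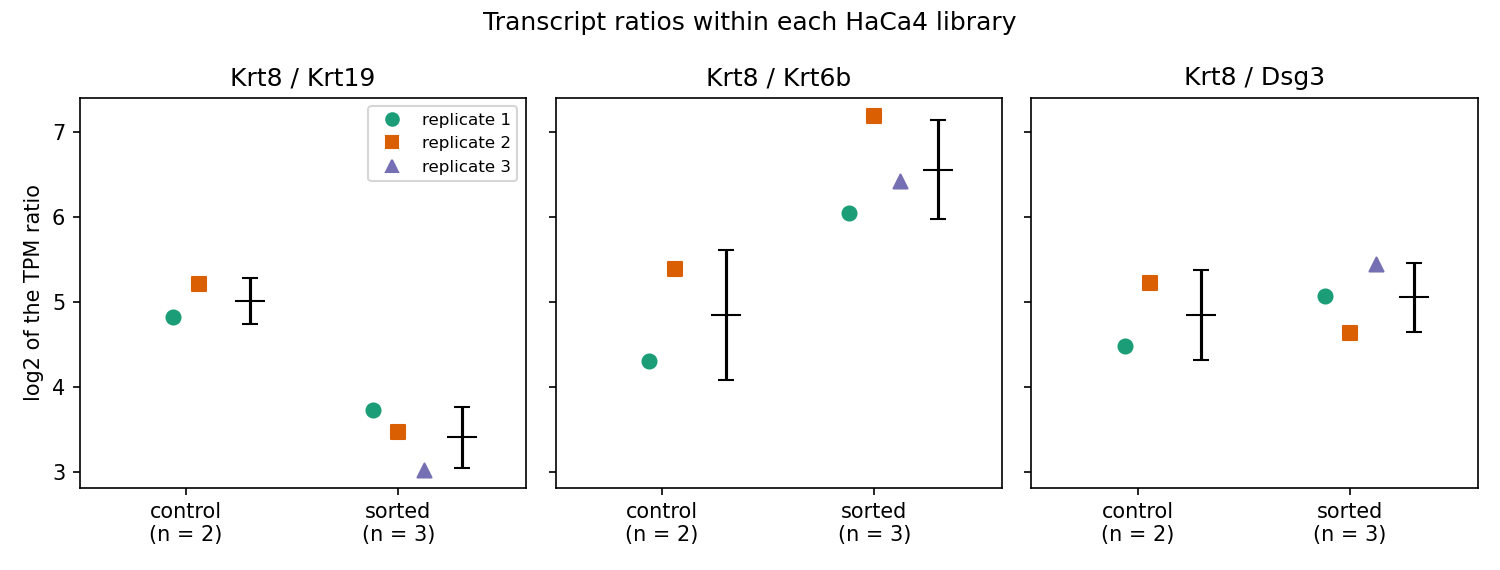
Log2 of the TPM ratio of *Krt8* to *Krt19*, *Krt6b*, and *Dsg3* within each HaCa4 library, with one point per library and bars for mean ± SD. The ratio to *Krt19* is lower and the ratio to *Krt6b* higher in all 3 sorted libraries, while the ratio to *Dsg3* overlaps between the groups.

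The summed level of the listed endothelial marker genes was higher in all 3 sorted HaCa4 libraries than in the controls. Of 47 endothelial marker genes, 23 were listed for HaCa4, and the others were not analysed in HaCa4. In a list selected for change, a marker near 0 in the controls could be held only by being higher in sorted libraries. The higher sum is thus no independent result. Their summed level was 7.50 and 5.63 TPM in the controls, with 12 and 11 of them at 0, and 29.2, 370 and 162 TPM in sorted replicates 1 to 3, with 0 of them at 0. By limma 3 of the 23 rose, where 15.9% of all listed genes were called higher, and 20 were not called. Their median log2 change was 1.49, against 0.74 over all listed genes. All 23 had the same order of the sorted libraries, replicate 2 above 3 above 1, an order shared by 121 of the 290 listed genes (41.7%). *Krt19* was highest in replicate 3, *Krt8* lowest in replicate 2, *Dsg3* highest in replicate 2, and *Krt6b* had the reverse order of the endothelial genes. Transcripts from LECs in the sorted HaCa4 cells and expression by HaCa4 itself cannot be told apart here, and the part of either in the values of the 4 genes was not tested.

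*Kdr*, *Gas6*, and *Sfrp1* were the genes listed for both lines that were under 0.1 TPM in both HaCa4 controls. At such control levels they too could be listed for HaCa4 only by being higher in sorted libraries. In HaCa4-sorted replicate 2 they stood at 1.85%, 1.80%, and 1.91% of their mean level in LEC-sorted. In replicate 3 they stood at 1.15%, 1.10%, and 0.77%, and in replicate 1 at 0.15%, 0.26%, and 0.075%. These percentages set levels across libraries of separate cell lines. In replicate 1, which had the lowest endothelial sum of the sorted libraries, *Krt6b*, *Krt8*, and *Dsg3* were below both controls and *Krt19* was above both. Of all listed HaCa4 genes, 96.6% had no overlap between control and sorted libraries. The part of LEC transcripts in the values of replicate 1 was not tested.

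Few other epithelial genes were listed for HaCa4. Of the lists written for this purpose, the files held 3 of 24 keratin genes, 1 of 22 desmosome and hemidesmosome genes, 0 of 34 genes of epithelial junctions and identity, and 2 of 40 genes of the cornified envelope and of activated keratinocytes. The 3 keratin genes were *Krt6b*, *Krt8*, and *Krt19* themselves, and the desmosome gene was *Dsg3*, so they add no further result. The 2 genes of the last list were *Tslp*, which encodes the epithelial cytokine TSLP, and *Areg*, which encodes the EGF receptor ligand amphiregulin. Both fell, where 14.1% of all listed HaCa4 genes were called lower. The controls had 205.30 and 221.78 TPM of *Areg*, compared with 165.28, 128.02, and 140.20 TPM in sorted replicates 1 to 3, a log2 change of -0.57 (adjusted p = 0.0366 from limma). The controls had 85.20 and 98.49 TPM of *Tslp*, and sorted replicates 1 to 3 had 29.08, 19.62, and 25.78 TPM, a log2 change of -1.86 (adjusted p = 0.0165 from limma). Other keratins, *Krt18*, *Krt5*, and *Krt14* among them, were not analysed here, so the usual partners of K8 and K6b and the defining keratinocyte markers could not be examined.

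The genes with the most similar course over the 5 HaCa4 libraries were sought by the root mean square difference of log2(TPM + 1), after centring each gene on its own mean. For *Krt6b* they were *Tslp* (0.28) and *Tnip3* (0.37), the latter encoding an inhibitor of NF-κB signalling. For *Krt8* they were *Ugt1a7c* (0.050), a glucuronosyltransferase gene, and *Tenm4* (0.052), a teneurin gene.  Those closest to *Krt19* were *LOC102641031* (0.13) and *Lgals3bp* (0.13), which encodes a secreted galectin-binding glycoprotein. Those closest to *Dsg3* were *Hcar2* (0.035), a hydroxycarboxylic acid receptor gene, and *Il12rb1* (0.088), an interleukin receptor chain gene. Among the 4 genes themselves, *Krt8* and *Dsg3* were the most alike (0.33), and *Krt6b* and *Krt19* the least (1.45).

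*Krt8* was the single one of the 4 genes listed for LECs, where it was barely detected. It was listed at 0 in all 3 LEC controls and at 0.19, 2.19, and 0.89 TPM in LEC-sorted replicates 1 to 3, so that the groups did not overlap, as for 96.9% of the listed LEC genes. No fold is given against a group listed at 0, and a gene at 0 in the controls could be listed only by being higher in LEC-sorted. On the log2(TPM + 1) scale the difference was 0.95 (95% interval 0.05 to 1.85, adjusted p = 0.043 from limma), in a list where 96.3% of genes were called and 63.9% were called higher. Without LEC control 1, 2, or 3 the difference stayed at 0.95, as all 3 were at 0, but *Krt8* was no longer called (adjusted p = 0.096, 0.0956, and 0.0975 from limma). Nor was it called without sorted replicate 2 (difference 0.58, adjusted p = 0.0549 from limma) or sorted replicate 3 (adjusted p = 0.0761 from limma). Controls all at 0 add no spread of their own, which lowers the pooled spread behind these p-values. After libraries were rescaled to an equal median the difference was 0.81 (adjusted p = 0.0684 from limma).

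Among the 23 genes listed for both cell lines, *Krt8* was the only one under 0.1 TPM in all LEC controls. Its level in LEC-sorted replicates 1 to 3 corresponded to 0.086%, 0.99%, and 0.40% of its mean in HaCa4-sorted, again across libraries of separate lines. Whether HaCa4 transcripts among the sorted LECs contributed to this level was not tested. Of 47 endothelial markers, only *Kdr* and *Clec14a* were listed for LECs. Both were called lower, as were 62 of the 191 listed LEC genes. *Prox1* and *Lyve1* were not analysed in LECs here. The other listed LEC gene from the epithelial lists was *Sprr2b*, which encodes a small proline-rich protein of the cornified envelope. *Sprr2b* was present in LEC controls at 3.27, 10.02, and 9.57 TPM and rose to 12.03, 39.47, and 53.87 TPM (adjusted p = 0.0151 from limma), with its highest value in sorted replicate 3 and not in replicate 2.

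Across the 4 groups, the order of *Krt8* levels was HaCa4 control, HaCa4-sorted, LEC-sorted, and LEC control, and no 2 neighbouring groups overlapped. Its change in HaCa4 and its change in LECs had opposite signs. The change in HaCa4 minus that in LECs was -1.52 on the log2(TPM + 1) scale (95% interval -2.54 to -0.49, adjusted p = 0.0103, limma interaction across the 11 libraries). Of the 23 shared genes, 19 passed this test (82.6%). Without HaCa4 control 2 the difference was -1.31 (adjusted p = 0.0512 from limma). Its size depended on the pseudocount, at -3.69 with 0.1 and -0.83 with 5. In LECs, the genes most like *Krt8* over 6 libraries were *1110008P14Rik* (0.21) and *Gsap* (0.21), which encodes a gamma-secretase activating protein.

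**Figure D5:**
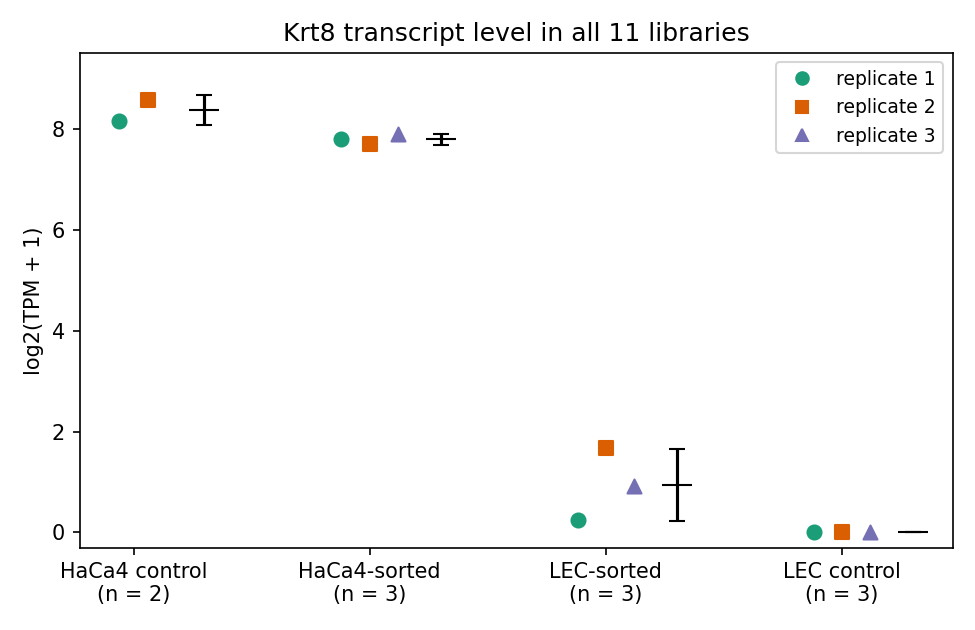
Level of *Krt8* on the log2(TPM + 1) scale in each of the 11 libraries by group, with one point per library and bars for mean ± SD. HaCa4 libraries lie far above those of LECs, the 3 LEC controls are at 0, and the 3 LEC-sorted libraries are between 0.19 and 2.19 TPM.

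Of the 4 genes, *Krt8* had a promoter sequence in the RefSeq-derived table for GRCm38.p6. In the 250 bases before its annotated start, 0 matches were found on either strand to the AP-1 motif TGANTCA, the SP1 motif GGGCGG, or the TATA box TATAAA. Of all 32851 promoters of that length, 6.75%, 32.7%, and 12.4% held these motifs.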

How the data were processed

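RNA was sequenced on a BGISEQ platform. The authors filtered reads with SOAPnuke and aligned them to GRCm38.p6 with HISAT2 2.0.4, and called differential expression with DESeq2, which needs counts and was not repeated. For a selected set of genes, the authors deposited one TPM value per library, given to 2 decimals. The tool that gave the TPM values is not given in the sources used here, and depth is unknown.

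TPM was transformed to log2(TPM + 1) without rescaling. Sorted and control libraries of each cell line were compared with limma 3.58.1 (R 4.3.3), with a mean-variance trend, two-sided, over all listed genes, and without a replicate block. The interaction fit used all 11 libraries and was adjusted over 23 shared genes. The procedure was tested on simulated data with levels raised above those of these libraries, so that test does not cover values near 0. The 4 genes and the gene lists were chosen with earlier results of these data known. Genes named in the text were the 4 genes, all listed genes of the epithelial lists, and the 2 genes closest to each in course. Alternatives were pseudocounts of 0.1 and 5, a mean TPM of at least 1, scaling to the same median, no trend, a replicate block, and omission of each library. Transcript windows of 50 and 100 bases were compared with all GENCODE M21 transcripts. Python 3.11.15, pandas 2.3.3, Biopython 1.88, and matplotlib 3.10.9 were used.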

Additional observations from a re-analysis of the deposited data

Results flagged for a closer look

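*Krt8* changed differently in the 2 cell lines. It was lower in every HaCa4-sorted library and higher in every LEC-sorted library than in the respective controls. The change in HaCa4 minus the change in LECs was -1.52 on the log2(TPM + 1) scale (adjusted p = 0.0103, limma interaction). The same test was passed by 19 of the 23 shared genes (82.6%). With a pseudocount of 0.1 the difference was -3.69, and with 5 it was -0.83. In LECs the change rests on values of 0.19, 2.19, and 0.89 TPM against 0, where a list selected for change could hold only a rise.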

How the results depend on the processing

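The direction of every change was the same under all alternatives tried, and the difference of *Krt8* between the cell lines was called in 15 of 16. As sorted and control libraries did not overlap, only rescaling could have reversed a direction. With a pseudocount of 5, *Krt8* (-0.56) and *Krt19* (0.77) in HaCa4 and *Krt8* in LECs (0.27) were no longer called, and 33 HaCa4 genes passed. With a pseudocount of 0.1, 177 HaCa4 genes passed. With libraries rescaled to an equal median, *Krt19* (0.16) and *Krt8* in LECs (0.81) were no longer called and *Dsg3* (-1.48) was, with 145 HaCa4 and 110 LEC genes past the thresholds, 46 LEC genes higher and 64 lower in place of 122 and 62. Without the trend, *Krt6b* (-1.87), *Krt8* (-0.57), and *Krt19* (0.97) were not called, as 0 HaCa4 genes passed with limma, although 161 had an unadjusted p under 0.05. The causes were not tested. A filter at a mean TPM of 1 removed *Krt8* from the LEC fit, which then gave no value.

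Omitting each library in turn gave log2 changes of -2.17 to -1.57 for *Krt6b*, -0.78 to -0.36 for *Krt8*, 0.73 to 1.12 for *Krt19*, and -0.84 to -0.54 for *Dsg3* in HaCa4. It gave 0.58 to 1.30 for *Krt8* in LECs, -1.87 to -1.16 for the difference of *Krt8* between the lines, and -1.80 to -1.41 for the log2 ratio of *Krt8* to *Krt19*. Between 0 and 194 HaCa4 genes and between 165 and 177 LEC genes passed. The 0 occurred without HaCa4 control 2 and without sorted replicate 3, where 70 and 126 genes had an unadjusted p under 0.05.

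The replicate numbers were not taken to pair the libraries. Same-numbered libraries deviated together with correlations of 0.23 and 0.28 in the 2 HaCa4 pairs and of 0.23, 0.074, and -0.019 in LECs. Differently numbered libraries had lower correlations in HaCa4, from -0.28 to 0.088, and values from -0.18 to 0.15 in LECs. With 2 controls, the HaCa4 deviations mirror each other, so these correlations cannot decide whether the libraries were paired. With a replicate block, 115 HaCa4 and 182 LEC genes passed and no call of the 4 genes changed. The log2 changes were -1.95 for *Krt6b*, -0.63 for *Krt8*, 0.73 for *Krt19*, and -0.57 for *Dsg3* in HaCa4 and 0.95 for *Krt8* in LECs. In HaCa4, sorted replicate 3 then had no partner and did not enter the estimates. These equalled the estimates with it omitted, where *Krt6b*, *Krt8*, and *Krt19* were not called. With a replicate block in which the second control was numbered 3, as in the name of its values, 22 HaCa4 genes passed. *Krt6b* (-1.63), *Krt8* (-0.52), and *Krt19* (1.05) were not called. Here sorted replicate 2 had no partner, so neither block fit is a check on all HaCa4 libraries. The unknown depth leaves the counting error of the lowest values, those of *Krt8* in LECs, without an estimate.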
